A study of Homo sapiens with 3 samples.

Results

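The MAP kinase cascade genes described here are those whose symbol starts with MAPK, MAP2K, MAP3K, MAP4K, RPS6KA or TAOK. The rule was applied to array probes with a gene name, after symbols had been updated by gene identifier, and found 40 genes among 8661 named genes. Each gene was read by 1 probe, the one with the highest mean signal over the 3 arrays. The cells were LNCaP, an established human prostate cancer line, cultured in medium with fetal bovine serum. The groups were ethanol, the vehicle, bufalin at 10 nM and bufalin at 20 nM, each for 24 h. Bufalin is a toad venom steroid that blocks the sodium pump. Each treatment had 1 array, so no difference below has a replicate check and none was tested.

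A MAP kinase cascade is a relay of protein kinases in which each tier phosphorylates the next. MAP4K enzymes act on MAP3K enzymes, these on MAP2K enzymes, and these on the MAP kinases themselves, the ERK, JNK and p38 families. MAP kinases in turn activate further kinases, among them the RSK, MSK and MK families, while scaffold proteins hold members of a relay together. In prostate cancer cells the ERK branch is known for growth signalling, and the JNK and p38 branches for responses to stress. The arrays measured RNA, which says nothing of the phosphorylation of these proteins.

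The 40 genes fell into 6 tiers: 2 MAP4K genes, 14 MAP3K genes including the TAO kinases, 5 MAP2K genes, 7 MAP kinase genes, 9 genes for kinases activated by MAP kinases, and 3 for scaffolds or other proteins. The last 3 are not kinase genes: MAPK8IP3 encodes the JNK scaffold JIP3, MAPKAP1 encodes SIN1, a subunit of the mTORC2 complex, and the third is MAPK1IP1L. A list of 62 cascade genes had been drawn up by tier, and the other 22, among them MAPK14 (p38-alpha) and MAP2K7, had no named probe and are not analysed here. Named probes carry a filter: per the values, all but 1 of the 13753 probes of the smaller table passed the looser detection limit of 0.05 on 2 or more arrays and had a signal at least 10% away from vehicle at 10 or 20 nM. Members that differed little from vehicle are therefore missing from every count. A probe was counted as detected where its detection p-value was below 0.01. By that measure 33 members were detected on all 3 arrays, 5 on 2 arrays, MAP3K13 on the 20 nM array alone and TAOK2 on none.

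Of the whole series, 14664 probes were detected with vehicle, 14735 at 10 nM and 14612 at 20 nM. Of 10 markers of luminal prostate cells, 8 had a named probe, 7 of them detected on all 3 arrays. At 20 nM 2 of these 8 were at least 2-fold higher, TMPRSS2 and FOLH1, and 2 were lower, STEAP2 and KLK2. Among all detected named genes 14.7% were higher and 16.6% lower. The median log2 fold change of the 8 luminal markers was -0.22. The summed signal of these 8, 6053 with vehicle, 8663 at 10 nM and 10119 at 20 nM, was mostly TMPRSS2 at 20 nM (5800). KLK2 was not detected there. None of 5 basal epithelial markers had a named probe. The summed signal of 3 leukocyte markers, HLA-DRA, CD14 and CD68, was 697 with vehicle, 965 at 10 nM and 1269 at 20 nM, while PTPRC and CD3E had no named probe. CD14 was not detected with vehicle (signal 113.6) or at 10 nM (134.1). For 3 stromal markers, VIM, ACTA2 and TAGLN, the summed signal was 1831 with vehicle, 2734 at 10 nM and 2474 at 20 nM. The part of these markers in the results was not tested, and in bulk RNA fewer cells of a type and less RNA per cell cannot be told apart. Signals are the deposited intensities, which still hold a background near 113, so that a signal of 150 is mostly background. Log2 fold changes were taken after background correction and quantile normalization.

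At 10 nM, 6 of 38 detected members were at least 2-fold higher than vehicle, 0 were lower and 32 were neither. Among all 8233 detected named genes, 6.46% were at least 2-fold higher and 3.27% lower. The median log2 fold change was 0.15 over the members and -0.04 over all named genes. At 20 nM, 7 of 39 members were at least 2-fold higher, 3 were lower and 29 were neither, against 14.7% higher and 16.6% lower among all 8346 detected named genes. The members' median was then 0.25 and that of all named genes -0.10. The share of members higher at 20 nM, 17.9%, lies near that of all named genes. Between the doses, 0 of 39 members were at least 2-fold higher at 20 nM than at 10 nM and 2 were lower, against 2.73% higher and 4.86% lower of all 8195. The vehicle array serves both bufalin comparisons, and their agreement is no second observation.

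These counts depend on the threshold and on the background correction. At 1.5-fold, 8 of 38 members were higher and 2 lower at 10 nM, against 17.2% and 16.3% of all named genes. At 20 nM 13 of 39 were higher and 9 lower, against 27.5% and 31.4%, and between the doses 6 were higher and 6 lower at 20 nM, against 12.7% and 16.5%. Without background correction, 0 members were 2-fold higher and 0 lower at 10 nM, against 2.36% and 0.547% of all named genes. At 20 nM 4 were higher and 1 lower, against 6.61% and 6.53%, and between the doses 0 were higher and 2 lower at 20 nM, against 0.476% and 0.927%. The members no longer past 2-fold at 20 nM were MAP3K3, MAP3K14, MAP3K6, MAPKAPK2 and RPS6KA4.

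**Figure D1:**
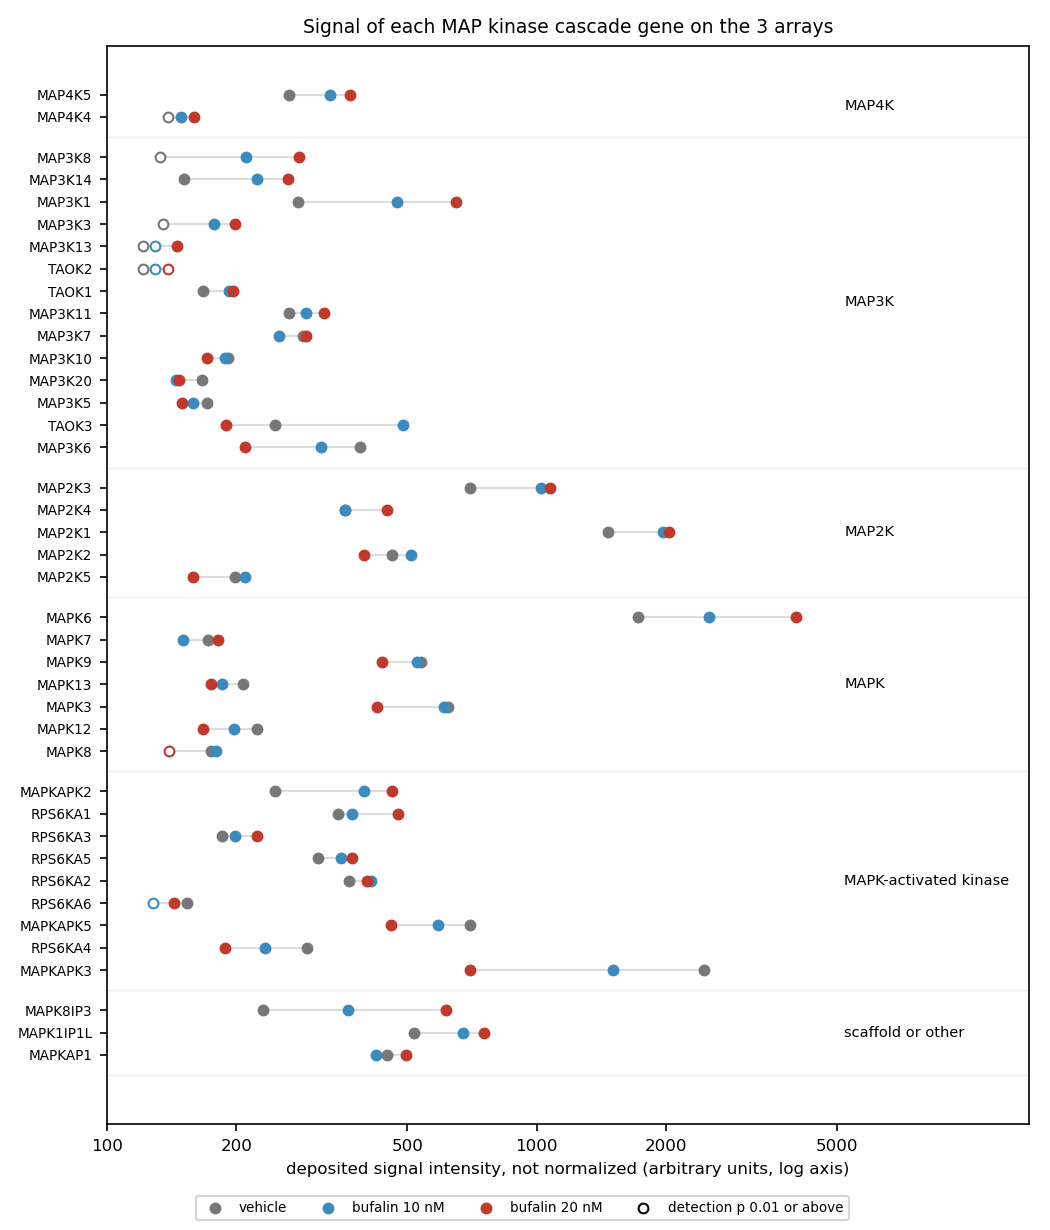
Deposited signal of each of the 40 members on the vehicle, 10 nM and 20 nM arrays (log axis, arbitrary units, 1 array each), grouped by tier and ordered within it by the log2 fold change at 20 nM. Open points have a detection p-value of 0.01 or above. MAPKAPK3 is lowest at 20 nM (698.0, against 2444 with vehicle), MAP3K1 is highest at 20 nM (649.5, against 278.5), and TAOK3 is highest at 10 nM.

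The plot of signals shows most members close to vehicle and a few far from it. Of the 40 probes, 19 stayed below a signal of 300 on every array, and for such dim probes the fold change depends strongly on how background is removed. As a yardstick with no replicate in it, the spread among named probes of the same gene, pooled over all genes with several, was an SD of 0.31 in log2 fold change at 10 nM and of 0.44 at 20 nM.

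MAP4K kinases receive signals at the cell membrane and pass them to MAP3K enzymes, and both named members lay above vehicle by less than 2-fold. MAP4K5 had a signal of 265.8 with vehicle, 331.1 at 10 nM and 366.7 at 20 nM. Its log2 fold change was 0.45 at 10 nM and 0.73 at 20 nM, and a dimmer probe gave 0.03 and 1.23, past 2-fold at 20 nM. MAP4K4, with 138.6, 149.0 and 159.7 in the same order, was not detected with vehicle and had log2 fold changes of 0.31 and 0.64 by its measured values.

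MAP3K enzymes are the entry point at which many stimuli reach the relay, and this tier held 5 of the 6 members past 2-fold at 10 nM and 5 of the 10 at 20 nM. At 10 nM 5 of 12 detected MAP3K genes were at least 2-fold higher and 0 lower, against 6.46% and 3.27% of all named genes. At 20 nM 4 of 13 were higher and 1 lower, against 14.7% and 16.6%. Both counts include MAP3K8 and MAP3K3, which were detected with bufalin and not with vehicle, so they are no support for a tier that differs from other genes. MAP3K8 encodes COT, also called TPL2, which activates the MAP2K enzymes of the ERK branch. Its signal was 133.1 with vehicle, 211.1 at 10 nM and 279.5 at 20 nM. It was not detected with vehicle (detection p-value 0.0156), so each fold is a bound: at least 2.70-fold above vehicle at 10 nM and at least 4.52-fold above it at 20 nM. Without background correction its log2 fold changes were 0.65 and 1.09.

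MAP3K14 encodes NIK, the kinase of noncanonical NF-kappa-B signalling, and had signals of 151.2 with vehicle, 223.5 at 10 nM and 263.5 at 20 nM. This was 2.37-fold above vehicle at 10 nM and 3.24-fold above it at 20 nM, or 0.83 on the log2 scale at 20 nM without background correction. MAP3K1, which encodes MEKK1, a kinase upstream of JNK that also carries a ubiquitin ligase domain, had 278.5, 472.6 and 649.5 in the same order. Its signal was thus higher at each step, 2.06-fold above vehicle at 10 nM and 3.11-fold above it at 20 nM. MAP3K3 encodes MEKK3, an activator of the ERK5 branch, and had 134.7, 177.4 and 198.8. Not detected with vehicle, it was at least 1.88-fold higher at 10 nM, where it counts as past 2-fold by its measured value only, and at least 2.54-fold higher at 20 nM, and its dimmer probe gave log2 fold changes of 0.61 and 0.81. Without background correction the values of the probe used were 0.38 and 0.59.

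TAOK3, a TAO kinase gene, lay above vehicle at 10 nM and below it at 20 nM. Its signal was 245.6 with vehicle, 487.7 at 10 nM and 189.0 at 20 nM, so only the 10 nM array was high. It was 2.62-fold higher than vehicle at 10 nM, 1.55-fold lower than vehicle at 20 nM, and 4.06-fold lower at 20 nM than at 10 nM. Without background correction the log2 values were 0.98 at 10 nM against vehicle, under 2-fold, and -1.32 at 20 nM against 10 nM, where the value with the correction was -2.02. It has 1 named probe, so no second probe bears on this. The other TAO kinase genes moved less: TAOK1 had 167.4 with vehicle, 192.1 at 10 nM and 196.2 at 20 nM, and TAOK2 was not detected on any array.

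The largest difference below vehicle in this tier was that of MAP3K6, which encodes ASK2, a partner of the stress kinase ASK1. Its signal was 388.7 with vehicle, 314.8 at 10 nM and 209.2 at 20 nM, and it was 1.35-fold lower at 10 nM and 2.51-fold lower at 20 nM. MAP3K5, the gene of ASK1 itself, was lower by less than 2-fold, with a log2 fold change of -0.45 at 20 nM. The remaining MAP3K genes were within 2-fold at both doses. Among them MAP3K7, the TAK1 gene, stood at 0.08 at 20 nM, MAP3K20, the gene of the ribotoxic stress kinase ZAK, at -0.44, and the mixed lineage kinase genes MAP3K11 and MAP3K10 at 0.46 and -0.29. MAP3K13, detected at 20 nM only, was at least 1.17-fold higher there.

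MAP2K enzymes are the narrow middle of the relay, each specific for few MAP kinases. By the probe used, none of the 5 members was 2-fold away at either dose. Among all named genes 6.46% were higher and 3.27% lower at 10 nM, and 14.7% and 16.6% at 20 nM. MAP2K1, the MEK1 gene, had a signal of 1465 with vehicle, 1966 at 10 nM and 2030 at 20 nM, and log2 fold changes of 0.40 and 0.45. MAP2K2, the MEK2 gene, had 460.2, 510.3 and 395.5, with 0.17 and -0.25. The p38 activator gene MAP2K3 lay above vehicle on all 3 of its probes. The probe used gave 0.59 at 10 nM and 0.66 at 20 nM, and the other, dimmer probes gave 1.04 and 1.08 at 20 nM, past 2-fold. MAP2K4, whose product serves both JNK and p38, stood at -0.02 and 0.48, and MAP2K5, the activator of ERK5, at 0.13 and -0.69.

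The MAP kinase tier lay mostly below vehicle, with the ERK3 gene farthest above it. Among all detected named genes, 4290 of 8233 had negative values at 10 nM and 4348 of 8346 at 20 nM. Of 7 members, 5 had negative values at 10 nM, where MAPK9 and MAPK3 stood at only -0.07 and -0.08, and 5 at 20 nM. Only 1 member was at least 2-fold away, above vehicle at 20 nM, where 14.7% of all named genes were higher and 16.6% lower. That member was MAPK6, which encodes the atypical kinase ERK3, with a signal of 1721 with vehicle, 2518 at 10 nM and 4001 at 20 nM. Both bufalin arrays were thus above vehicle, by 1.45-fold at 10 nM and by 2.25-fold at 20 nM. MAPK3, the ERK1 gene, had 622.0, 607.9 and 423.7 in the same order. Its log2 fold change at 20 nM was -0.67, and that of its other probe -0.38.

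The 4 stress-activated MAP kinase genes were all lower than vehicle at 20 nM, and none had a measured difference of 2-fold. MAPK8, the JNK1 gene, had signals of 174.3 with vehicle, 179.5 at 10 nM and 139.4 at 20 nM, where it was no longer detected. With background correction it was at least 1.83-fold lower at 20 nM, and without it the log2 fold change was -0.32. MAPK9, the JNK2 gene, stood at -0.36 at 20 nM. MAPK12 and MAPK13, the genes of p38-gamma and p38-delta, stood at -0.80 and -0.44. MAPK7, the ERK5 gene, was on either side of vehicle, at -0.50 at 10 nM and 0.24 at 20 nM.

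**Figure D2:**
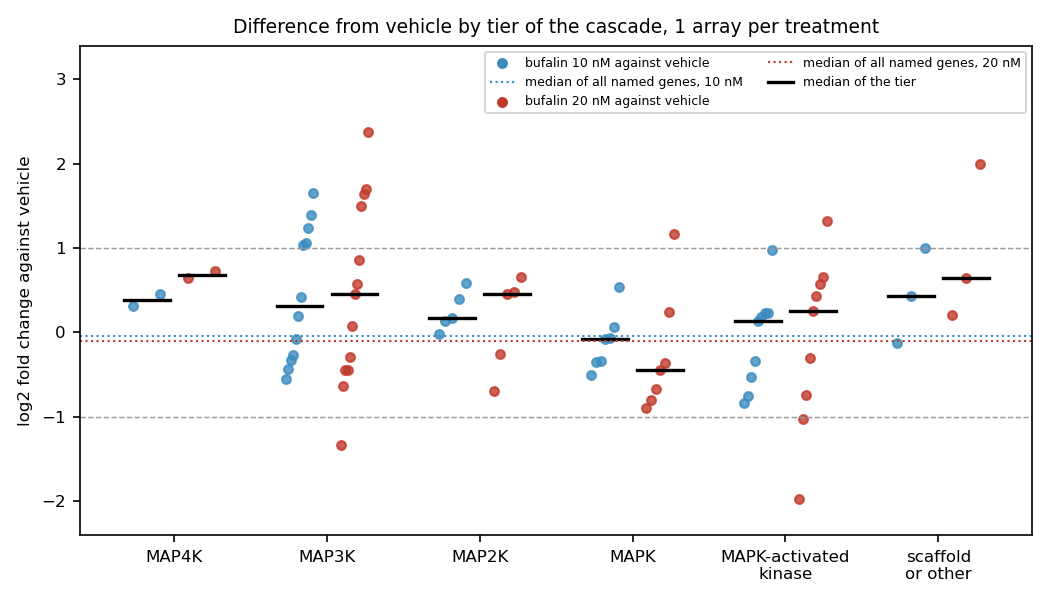
Log2 fold change against vehicle of each detected member (points) by tier, at 10 nM and 20 nM, with the tier median as a black bar, the median of all named genes as dotted lines and 2-fold as dashed lines. At 20 nM the medians are 0.68 for MAP4K, 0.46 for MAP3K, 0.45 for MAP2K, -0.44 for MAPK, 0.25 for MAPK-activated kinases and 0.64 for scaffolds or others.

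Set side by side, the tiers above the MAP kinases had medians above vehicle and the MAP kinase tier a median below it. At 10 nM the medians were 0.38 for MAP4K, 0.31 for MAP3K, 0.17 for MAP2K, -0.08 for MAPK, 0.13 for the kinases activated by MAP kinases and 0.43 for scaffolds or others. The plot by tier gives those at 20 nM. The median of all named genes was also below vehicle, at -0.04 at 10 nM and -0.10 at 20 nM. The MAPK median at 10 nM lies near that of all named genes. The tier medians are of 2 to 13 genes from single arrays, and the order among tiers was not tested. The MAPK median stayed negative in each of the alternative settings run, between -0.48 and -0.29 at 20 nM. The MAP3K median turned to -0.11 at 20 nM when only the 10 genes detected on both arrays were used, which leaves out MAP3K8, MAP3K3 and MAP3K13.

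Of the kinases that MAP kinases activate, most lay within 2-fold of vehicle. At 20 nM 1 of 9 was at least 2-fold higher, 2 were lower and 6 were neither, or 11.1% higher and 22.2% lower, near the 14.7% and 16.6% of all named genes. MAPKAPK2 and MAPKAPK3 encode MK2 and MK3, close relatives that p38 activates and that act on messenger RNA stability. MAPKAPK2 had signals of 246.4 with vehicle, 395.7 at 10 nM and 461.1 at 20 nM and was above vehicle by 1.97-fold at 10 nM and by 2.50-fold at 20 nM. MAPKAPK3 had 2444 with vehicle, 1503 at 10 nM and 698.0 at 20 nM. It was 1.69-fold lower at 10 nM and 3.92-fold lower at 20 nM, the largest difference below vehicle of any member, and 2.32-fold lower at 20 nM than at 10 nM. In this pair, chosen after its values were seen, the log2 fold change of MAPKAPK2 minus that of MAPKAPK3 was 1.73 at 10 nM and 3.29 at 20 nM. MAPKAPK5, which encodes MK5, a partner of ERK3, was lower on both of its probes. At 20 nM the probe used gave -0.74 and the dimmer probe -1.06, past 2-fold.

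The MSK genes, whose kinases act on chromatin and on the factor CREB, also lay on opposite sides. RPS6KA4, the MSK2 gene, had 292.4 with vehicle, 233.1 at 10 nM and 188.5 at 20 nM and was 2.05-fold lower at 20 nM, just past the threshold. RPS6KA5, the MSK1 gene, had 310.0, 350.8 and 371.6 and stood at 0.43 at 20 nM. The RSK genes, targets of ERK, stayed within 2-fold. At 20 nM RPS6KA1 stood at 0.66, RPS6KA3 at 0.58, RPS6KA2 at 0.25 and RPS6KA6 at -0.30.

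Of the scaffold and other genes, MAPK8IP3 stood far above vehicle. Its product, JIP3, binds JNK pathway kinases and links cargo to kinesin motors. The signal was 230.5 with vehicle, 364.1 at 10 nM and 615.2 at 20 nM, a steady order over the 3 arrays. It was 2.0-fold higher at 10 nM, at the threshold itself (0.99 on the log2 scale under median scaling), and at 20 nM 4.0-fold higher. Without background correction its log2 fold changes were 0.65 at 10 nM, under 2-fold, and 1.44 at 20 nM. MAPK1IP1L stood at 0.43 and 0.64. For MAPKAP1 the 3 probes gave 0.21, -0.61 and 0.36 at 20 nM, so no direction is given.

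**Figure D3:**
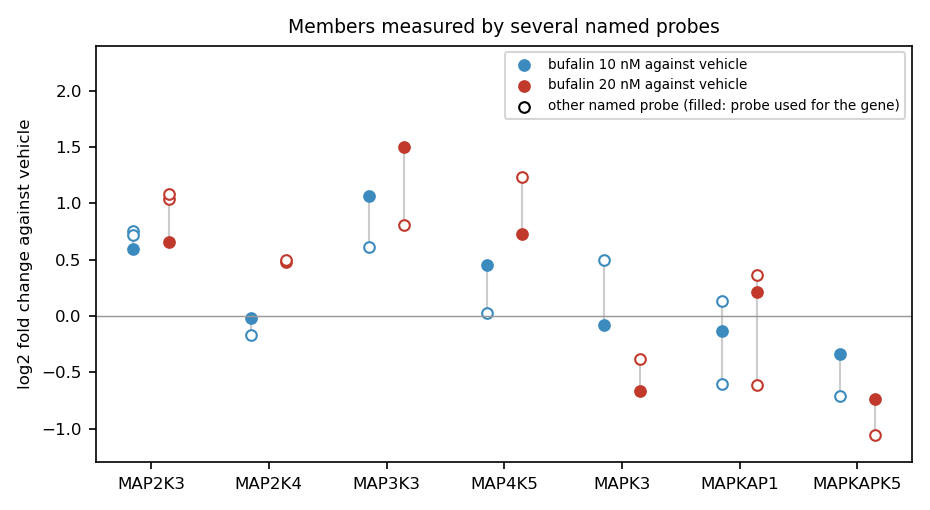
Log2 fold change against vehicle at 10 nM and 20 nM for the 7 members with several named probes; filled points are the probe used, open points the others. At 20 nM the probes of 6 genes share a sign, and those of MAPKAP1 span 0.97.

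Probes of the same gene are the one internal check these arrays allow. Of 7 members with several named probes, 6 had the same sign on all their probes at 20 nM and 5 at 10 nM. The exceptions were MAPKAP1 at both doses and MAPK3 at 10 nM, where the probes gave -0.08 and 0.50. The range between probes of a member ran from 0.02 to 0.97 at 20 nM. Of the members past 2-fold at either dose, MAP3K3 alone has a second named probe.

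Over the 2 dose steps, vehicle to 10 nM and 10 nM to 20 nM, 19 of 39 detected members were higher at both (48.7%), 10 were lower at both (25.6%) and 10 turned. Among all 8431 named genes detected on at least 1 array, 33.9% were higher at both steps and 38.3% lower at both. Both steps use the 10 nM array, which ties them together. A step counts by its sign alone, however small. Members lower at both steps included MAPKAPK3, MAPKAPK5, RPS6KA4 and MAP3K6, and 4 MAP kinase genes: MAPK3, MAPK9, MAPK12 and MAPK13. At the first step MAPK9 stood at -0.07 and MAPK3 at -0.08, with 0.50 on its other probe. At the second step MAPK13 stood at -0.10, and RPS6KA2, counted as higher at both, at 0.02.

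Some members were also read by the branch they are best known for, with MAP2K4, which serves p38 too, under JNK, and no branch lay wholly on 1 side of vehicle at 20 nM. In the p38 branch the activator gene MAP2K3 and the target MAPKAPK2 were above vehicle, whereas MAPK12, MAPK13 and MAPKAPK3 were below it, with a median of -0.44 over 5 members. In the JNK branch the scaffold gene MAPK8IP3 was above, as were MAP2K4, MAP3K11 and MAP3K13, and MAPK8, MAPK9 and MAP3K10 were below. The median of this branch was 0.46 over 7 members. The ERK1 branch, with the MEK and RSK genes, had a median of 0.35 over 8, with MAP3K8 its only member past 2-fold. In the ERK5 branch MAP3K3 was above vehicle, MAP2K5 below it and MAPK7 near it, with a median of 0.24. The atypical branch set MAPK6 above vehicle and MAPKAPK5, the gene of its partner, below.

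Promoters are printed for the members at the ends of the range at 20 nM, MAP3K8 and MAPK8IP3 as the highest by value and MAPKAPK3 as the lowest, since these carry the widest contrast. Each window runs from 250 bases before to 50 after the start of the gene in RefSeq (GRCh38.p14), 5′ to 3′ on the gene's strand. Capitals mark matches, on either strand, to AP-1 (TGANTCA), the cyclic AMP element CRE (TGACGTCA), ETS (CCGGAAG) and the E-box (CACGTG). The windows are chr10:30433771-30434070 on the plus strand for MAP3K8, chr16:1705945-1706244 on the plus strand for MAPK8IP3 and chr3:50611627-50611926 on the plus strand for MAPKAPK3.
MAP3K8: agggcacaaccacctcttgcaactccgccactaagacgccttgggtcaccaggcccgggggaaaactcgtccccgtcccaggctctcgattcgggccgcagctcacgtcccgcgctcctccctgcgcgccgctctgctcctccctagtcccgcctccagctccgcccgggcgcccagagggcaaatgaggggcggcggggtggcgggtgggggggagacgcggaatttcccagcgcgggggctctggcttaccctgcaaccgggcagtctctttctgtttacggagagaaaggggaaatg
MAPK8IP3: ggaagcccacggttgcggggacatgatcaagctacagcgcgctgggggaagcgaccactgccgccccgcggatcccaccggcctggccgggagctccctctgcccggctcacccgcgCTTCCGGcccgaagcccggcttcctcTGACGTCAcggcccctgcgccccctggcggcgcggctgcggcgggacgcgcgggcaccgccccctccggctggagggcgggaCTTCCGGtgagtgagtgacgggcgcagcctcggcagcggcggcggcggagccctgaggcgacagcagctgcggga
MAPKAPK3: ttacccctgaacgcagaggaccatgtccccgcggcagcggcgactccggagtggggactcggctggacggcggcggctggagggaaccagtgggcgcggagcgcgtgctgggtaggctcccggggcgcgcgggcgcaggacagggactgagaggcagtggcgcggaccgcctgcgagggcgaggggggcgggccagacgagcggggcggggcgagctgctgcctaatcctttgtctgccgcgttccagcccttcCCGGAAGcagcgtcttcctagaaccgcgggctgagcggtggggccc
The MAPK8IP3 window holds 1 CRE and 2 ETS matches, that of MAPKAPK3 holds 1 ETS match just after the start, and that of MAP3K8 holds none of these letter patterns. Variants of the patterns were not searched. Of 38 members with a window in the table, 2 held CRE, or 5.26%, against 3.49% of 7108 named genes and 1.98% of all 27305 promoters. ETS was found in 5 members, or 13.2%, against 20.4% of named genes and 10.7% of all. AP-1 was found in 2 members (5.26%, against 4.01% and 7.76%) and the E-box in 2 (5.26%, against 11.0% and 7.43%). The kappaB pattern was found in 1 member, RPS6KA4 (2.63%, against 2.36% and 1.92%). Median GC content was 71.7% over the members, 65.3% over named genes and 58.3% over all promoters. These matches describe letters in a window and not binding.

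Genes around the cascade were read from lists by role, chosen with earlier results of these data known. The background is the same as above: 6.46% of all named genes higher and 3.27% lower at 10 nM, and 14.7% and 16.6% at 20 nM. Of 8 named genes for RAS proteins and their direct regulators, 1 was past 2-fold above vehicle at 10 nM and 0 below, and at 20 nM 0 were above and 1 below, with a median of 0.34. The higher one at 10 nM was RRAS, a RAS relative, at 1.27, which stood at 0.37 at 20 nM. The lower one was SPRED1, an inhibitor of the RAS to ERK step, with signals of 200.7 with vehicle, 153.6 at 10 nM and 131.3 at 20 nM, and at least 2.44-fold lower at 20 nM, or -0.61 on the log2 scale without background correction. SPRED2 stood at 0.92, the adaptor gene SHC1 at 0.84 and HRAS at 0.44. Of 5 further kinases that the symbol rule does not catch, STK3 alone was past 2-fold at 20 nM, and the median was 0.74. This Hippo kinase gene was 2.96-fold higher, MKNK2, a gene for a kinase activated by MAP kinases, was 1.97-fold higher, and MKNK1 and ARAF stood at 0.74 and 0.42.

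**Figure D4:**
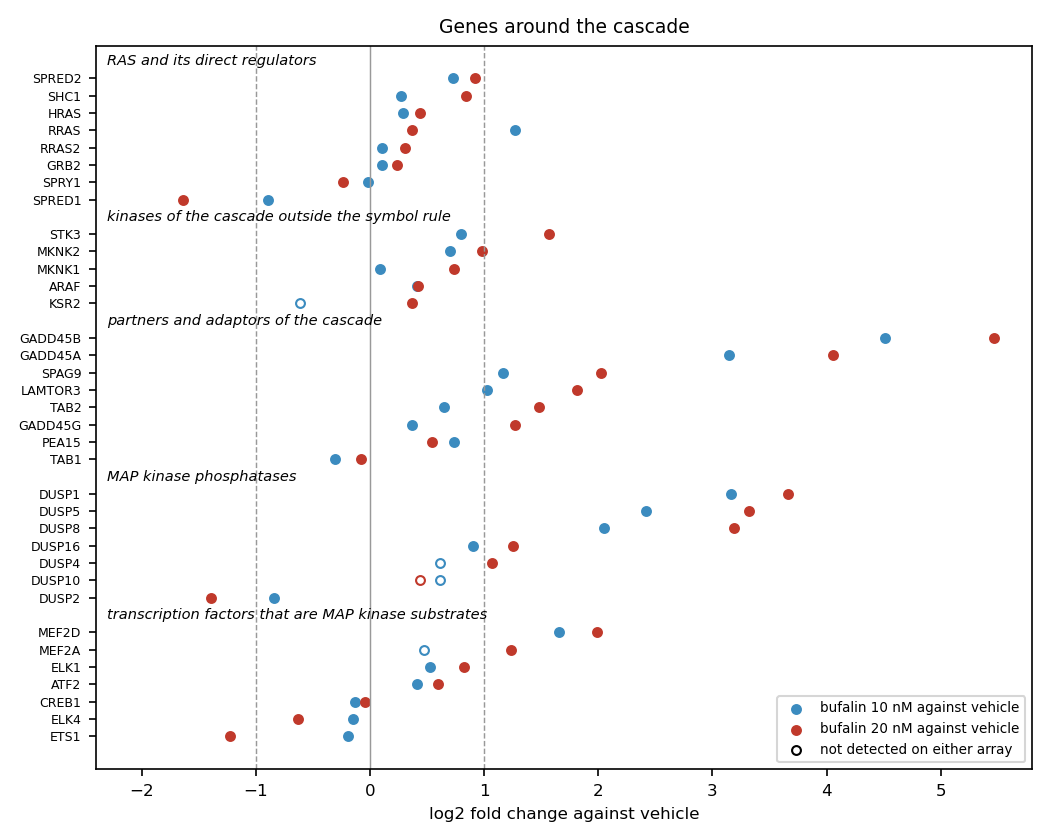
Log2 fold change against vehicle at 10 nM and 20 nM of named genes in 5 lists around the cascade (open points: not detected on either array of the comparison; dashed lines: 2-fold). Phosphatase and partner genes reach farther above vehicle than any kinase member, up to 5.47 for GADD45B by value, while RAS regulators stay mostly within 2-fold.

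Some genes for MAP kinase phosphatases and for partners of the cascade reached farther from vehicle than any of the kinase genes. Of 10 listed phosphatase genes, 7 had a named probe, and the filter on difference from vehicle bears on these too. At 20 nM 5 of 6 detected phosphatase genes lay past 2-fold above vehicle and 1 below it, against 14.7% and 16.6% of all named genes. At 10 nM 3 of 5 lay above and 0 below, against 6.46% and 3.27%. The list median at 20 nM was 2.22. DUSP5 had signals of 190.5 with vehicle, 592.9 at 10 nM and 1019 at 20 nM, and DUSP8 158.8, 354.2 and 643.5. At 20 nM DUSP1 stood at 3.66, DUSP5 at 3.32, DUSP8 at 3.19 and DUSP2 at -1.39. Without background correction DUSP1 stood at 3.39, DUSP5 at 2.41 and DUSP8 at 2.03 at 20 nM. DUSP16, DUSP4 and DUSP2 were then within 2-fold, at 0.84, 0.36 and -0.88. DUSP4 counts as higher by its measured value only: it was not detected with vehicle, and the bound is 1.11-fold.

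Of 11 listed partner and adaptor genes, 8 had a named probe. At 10 nM 4 of the 8 were past 2-fold above vehicle and 0 below it, against 6.46% and 3.27% of all named genes. At 20 nM 6 were above and 0 below, against 14.7% and 16.6%. The median of the 8 was 0.89 at 10 nM and 1.65 at 20 nM. SPAG9 encodes the JNK scaffold JIP4, a relative of JIP3, and had 279.8 with vehicle, 507.5 at 10 nM and 832.8 at 20 nM. Like MAPK8IP3 it was highest at 20 nM, 2.25-fold above vehicle at 10 nM and 4.06-fold at 20 nM. LAMTOR3, which encodes the MEK1 scaffold MP1, was 2.04-fold and 3.51-fold higher. GADD45A and GADD45B encode stress-induced activators of the MAP3K enzyme MEKK4. At 20 nM GADD45A was 16.7-fold higher, and GADD45B, not detected with vehicle, at least 42.2-fold higher. The signals of GADD45B were 137.0 with vehicle, 989.4 at 10 nM and 1866 at 20 nM, and without background correction its log2 fold change at 20 nM was 3.74, a far smaller fold than that bound.

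Transcription factor genes whose products are MAP kinase substrates lay on both sides. Of 7 detected at 20 nM, 2 were above vehicle by 2-fold or more, 1 was below it and 4 were neither, and the median was 0.60. MEF2D had 270.4 with vehicle, 647.0 at 10 nM and 781.2 at 20 nM and was 3.97-fold higher at 20 nM. MEF2A counts as higher by its measured value only: it was not detected with vehicle, and the bound is 1.43-fold. ELK1 stood at 0.82, and ETS1 was 2.35-fold lower.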

How the data were processed

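Total RNA of 3 LNCaP samples, 1 per treatment, was measured on Illumina bead arrays. The deposited signal intensities of 47323 probes are not normalized, per the file headers, and were made with BeadStudio 3.0, per the submitters' processing notes. The sources used here do not say whether background was subtracted. A deposited detection p-value comes with each intensity, and its column was paired with its array by rank order of the values. A smaller deposited table of 13753 probes holds the same intensities. Probe names came from an annotation of that table: 10952 probes had 1 symbol and 2 had several. Of their identifiers, 10947 were found in the RefSeq table (GRCh38.p14). No coordinates of probes are given.

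Background was removed with normexp from the detection p-values (limma 3.58.1, R 4.3.3), an offset of 16 was added, arrays were quantile normalized and log2 was taken, as tested on simulated data. The simulated folds were set only in probes with a vehicle signal above 300. That test therefore does not cover the 19 members below 300 on every array. A gene counted in a comparison if detected (p-value below 0.01) on at least 1 of its 2 arrays. Folds of genes detected on 1 array are bounds, set against the higher of the dim value and the lowest detected value on that array. Such a bound holds under this background correction only, and folds without the correction can be smaller. The threshold was 2-fold, with no test. For dim genes a larger offset makes the fold change smaller and background removal makes it larger, so its true size is not known. With 1 array each, precision is limited by the number of arrays.

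Members and lists were chosen with earlier results of these data known. Named were members past 2-fold in any comparison, the highest and lowest of each tier at 20 nM, and up to 4 genes per further list. Others are named to account for all members or as examples chosen after their values were seen.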

Additional observations from a re-analysis of the deposited data

How the results depend on the processing

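Of the 18 member calls past 2-fold, 6 held in each of the 8 other settings that keep the threshold: MAP3K1, MAPK6, MAPK8IP3 and MAPKAPK3 at 20 nM against vehicle, and MAPKAPK3 and TAOK3 at 20 nM against 10 nM. None of the 6 calls at 10 nM did. At 10 nM the count of higher members, 6 as reported, was 0 without background correction, 0 in the deposited intensities without normalization (2.53% of all named genes) and 2 with the offset of 50 (3.87%), and the count of lower members was 2 at the threshold of 1.5-fold. At 20 nM the 7 higher members became 4 without background correction, 4 in the unnormalized intensities and 13 at 1.5-fold. The 3 lower ones became 1, 1 and 9 in that order. In the unnormalized intensities 6.69% of all named genes were higher and 6.47% lower. Between the doses, the count of higher members was 1 under median scaling, MAPK8IP3 at 1.05, and 6 at 1.5-fold, and that of lower members was 6 at 1.5-fold. The median of the MAP3K tier at 20 nM was -0.11 over genes detected on both arrays, against 0.46 as reported. The other tier medians kept their sign in the settings run. No paired analysis was possible because each treatment had 1 array, and no array could be left out. Signal over background limits the values of MAP3K8, MAP3K3 and MAP3K14, whose ranges over the settings at 20 nM were 1.07 to 2.4, 0.56 to 1.5 and 0.80 to 1.70 in log2 fold change.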
